A study of Rattus norvegicus with 19 samples.

Results

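The genes described here encode proteins that the liver secretes into blood plasma. They comprise 11 acute phase proteins, 14 proteins of coagulation and fibrinolysis, 13 of the complement system, 5 of the inter-alpha-trypsin inhibitor family and 5 carriers and other plasma proteins, 48 genes in all. The list was put together by function, and every probe set (the group of short probes that reports on a transcript) annotated to exactly 1 of these genes was taken from both array types of the study. Such a probe set was found for 43 genes. On the first array type 35 genes had 44 probe sets, out of 10411 genes named there, and on the second 8 genes had 10 probe sets, out of 5667. No gene of the list was on both, so each was measured on 1 array type. Tf, F7, F11, Kng1 and Cfb had no single-gene probe set and are not analysed here. A gene with several probe sets is represented by its brightest, and 7 genes had more than 1.

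Adult rats were fasted overnight, injected intraperitoneally with corn oil or with pregnenolone 16α-carbonitrile (PCN) at 100 mg/kg in a single dose, and killed 8 h later. PCN, a man-made steroid, is a ligand of the pregnane X receptor of rodents, a nuclear receptor best known for inducing drug-metabolizing genes, and the study asked whether it also acts on genes apart from those, as a guard against stress. Each group had 5 biological replicates, and the 2 groups differed only in the injected agent as far as the labels say. Total liver RNA was hybridized to 10 arrays of the first type, with 5 in each group, and to 9 of the second, with 4 of corn oil (replicates 1, 3, 4 and 5) and 5 of PCN. Strain and sex are not given in the sources used here. The p-values below set the difference between groups against the spread between arrays within them, for these animals alone. In whole liver, fewer hepatocytes and less RNA per hepatocyte cannot be told apart.

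Hepatocytes make most of the protein in plasma, from albumin to the clotting factors and the complement components. In injury or infection, interleukin-6 and interleukin-1 act on them through STAT3, NF-κB and the C/EBP factors, and secretion shifts towards the acute phase proteins. In the rat, alpha-2-macroglobulin (A2m), alpha-1-acid glycoprotein (Orm1) and lipocalin-2 (Lcn2) are among the strong responders, whereas albumin is made in smaller amounts in that state.

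At 8 h after PCN, 1 of these 43 genes differed from corn oil past the threshold. On the first array type none of 35 members passed the test (adjusted p below 0.05, limma with Benjamini-Hochberg adjustment over 11106 probe sets), against 3.25% of all probe sets and 6.03% of the brightest 10% of them, among which 32 of the 35 lay. At an unadjusted p below 0.05 there were 7 members, 6 higher and 1 lower after PCN. In either direction, 17.7% of all probe sets and 26.7% of the brightest 10% had such a p. Differences (PCN minus corn oil, on the log2 scale throughout) ran from -0.13 to 0.70 with a median of 0.05, and 25 of 35 were positive, against a median of 0.00 and 49.6% positive among all named genes. For 30 of the 35 the whole 95% interval lay within a 1.5-fold change in either direction, a share of 85.7% that is near the 83.5% of all named genes. It was 78.8% in the brightest 10% of probe sets and 6 of 11 (54.5%) in the acute phase group. Of the 8 members on the second array type 1 was called, the complement gene C5, which rose 1.76-fold. There 5.4% of all probe sets were called, 3.76% as higher, and 15.2% of the brightest 10%, to which all 8 members belonged. At an unadjusted p below 0.05 there were 3 of the 8 (C5, C2 and C8a), all higher. In either direction, 27.3% of all probe sets there and 43.9% of the brightest 10% had such a p. The 95% interval lay within a 1.5-fold change for 4 of the 8 (50%) and for none of the 4 complement genes. That share was 85.9% among all named genes there and 60.3% among the brightest 10% of probe sets. No member was called lower on either array type.

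**Figure D1:**
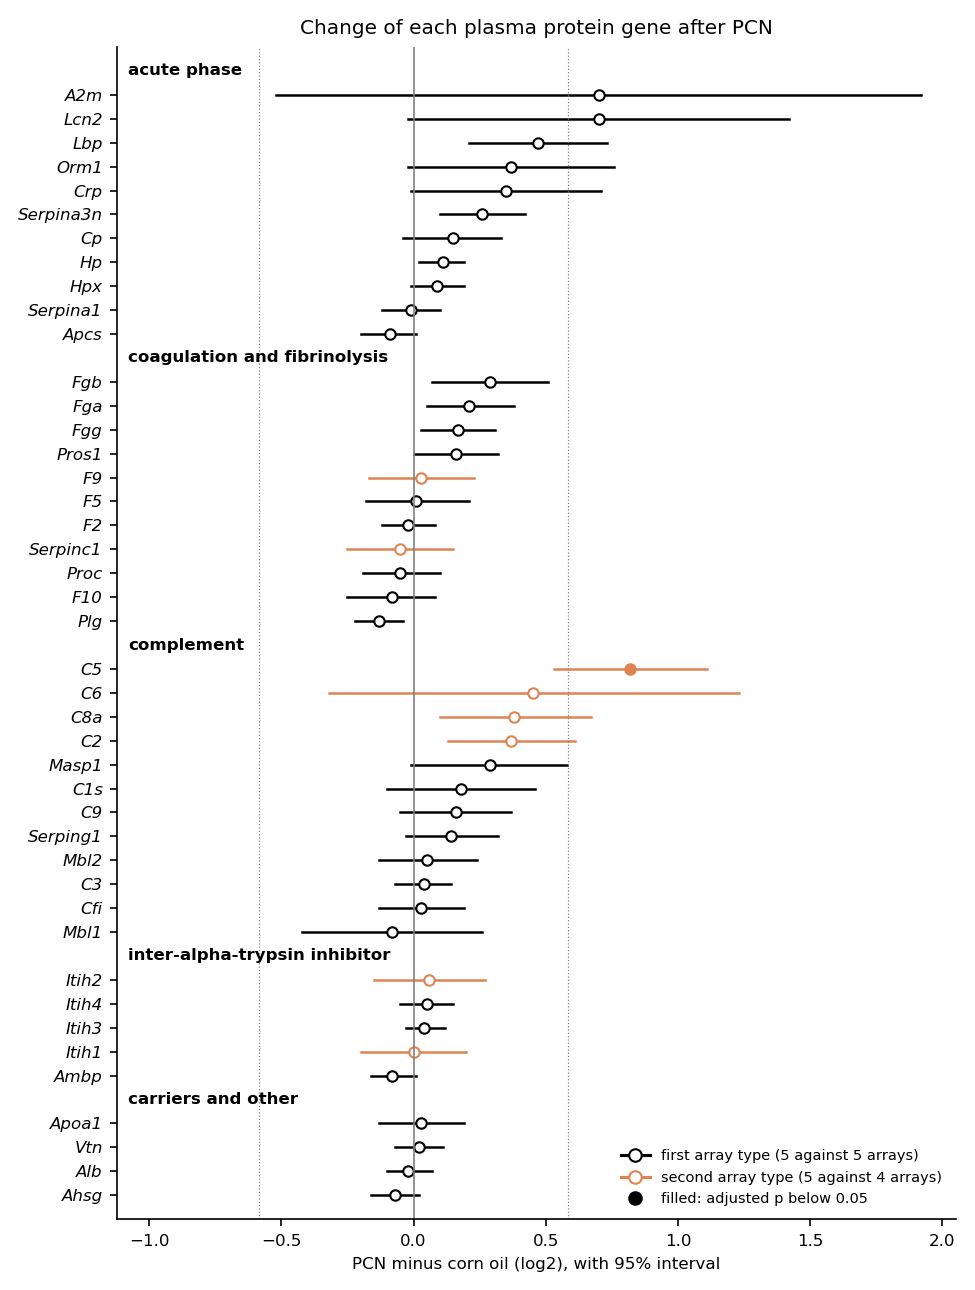
Difference between PCN and corn oil for each of 43 plasma protein genes, by its brightest probe set (log2 scale, horizontal axis), with the 95% interval from limma as a line. Black stands for the first array type (5 against 5 arrays), orange for the second (5 PCN against 4 corn oil), a filled point for an adjusted p below 0.05, and dotted lines for a 1.5-fold change. C5 holds the only filled point, and the widest interval is that of A2m, from -0.52 to 1.92.

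The liver RNA was checked with marker genes of the cell types it can hold. On the first array type none of 6 hepatocyte markers was called, nor was any of 8 Kupffer cell and macrophage markers, 8 of stellate cells and fibroblasts, 4 of endothelial cells, 2 of cholangiocytes, 3 of lymphocytes and 3 of red cells, or the single neutrophil marker tested. At an unadjusted p below 0.05 (limma) there were 2 stellate, 1 lymphocyte and 2 red cell markers and the neutrophil marker, S100a9. The red cell markers were all lower after PCN, with summed levels (the log2 of the summed linear values of a list in an array) of 14.10 to 14.45 in corn oil and 13.62 to 14.28 in PCN. The stellate markers summed to 11.90 to 12.35 in corn oil and 12.31 to 12.61 in PCN. The brightest of them was Col3a1, with means of 11.20 in corn oil and 11.63 in PCN. Of the 8 tested, 5 were higher, and Des, Lrat and Acta2 were lower (-0.06, -0.16 and -0.14). On the second array type the stellate list summed to 8.10 to 8.30 in corn oil and 7.95 to 8.20 in PCN. On the second array type the brightest probe sets of these lists (1 hepatocyte, 2 macrophage, 1 neutrophil, 2 stellate, 4 endothelial, 1 cholangiocyte and 2 lymphocyte markers) held no call either, with 5 at an unadjusted p below 0.05. A second, dimmer probe set of the macrophage receptor Cd163 was higher by 0.58 ± 0.14 (SE, adjusted p = 0.0371, limma). The part of these cells in the results below was not tested except where stated.

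Among the acute phase proteins 9 of 11 differences were positive, with a median of 0.26, and none passed the test. In 3 of the 11 the unadjusted p was below 0.05 (Lbp, Serpina3n and Hp). Lbp, the lipopolysaccharide-binding protein that hands bacterial endotoxin to CD14, came nearest. Its levels in corn oil replicates 1 to 5 were 11.96, 11.79, 11.86, 12.03 and 11.91, and in PCN replicates 1 to 5 they were 12.11, 12.57, 12.06, 12.57 and 12.58. All PCN arrays lay above all corn oil arrays, with replicates 1 and 3 close to the corn oil range and the other three well above it. The means were 11.91 ± 0.09 in corn oil and 12.38 ± 0.27 in PCN (SD, n = 5 each), a 1.38-fold difference of 0.47 ± 0.12 (SE, adjusted p = 0.053, limma). Groups that did not overlap were seen in 6.04% of all probe sets on these arrays and in 11.3% of the brightest 10%. Lbp passed the threshold in 5 of 24 alternative settings, with adjusted p values from 0.0354 to 0.136 and differences from 0.38 to 0.55. Without PCN replicate 1 its adjusted p was 0.0474 and without PCN replicate 3 it was 0.0354 (limma).

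Haptoglobin (Hp), which binds free hemoglobin, was the other acute phase gene whose groups did not overlap. Its corn oil arrays read 14.63, 14.61, 14.65, 14.64 and 14.63, and its PCN arrays 14.73, 14.68, 14.75, 14.85 and 14.70. The difference was small, 0.11 ± 0.04 (SE, adjusted p = 0.173, limma), beside a corn oil SD of 0.01. Serpina3n, a serine protease inhibitor of the antichymotrypsin family, averaged 13.46 ± 0.07 in corn oil and 13.72 ± 0.16 in PCN (SD, n = 5 each). Its difference of 0.26 ± 0.07 (SE) had an adjusted p of 0.0868 (limma), and PCN replicate 3 at 13.55 lay inside the corn oil range of 13.37 to 13.56.

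The largest differences in the group belonged to A2m, a broad protease inhibitor, and Lcn2, which withholds iron from bacteria by binding their siderophores, and both had wide errors. A2m read 6.84, 7.98, 6.84, 6.78 and 6.53 in corn oil replicates 1 to 5 and 7.37, 6.73, 6.73, 10.15 and 7.50 in PCN replicates 1 to 5. PCN replicate 4 stood 2.65 above the next PCN array, while PCN replicates 1, 2, 3 and 5 all lay within the corn oil range. The difference was 0.70 ± 0.56 (SE, adjusted p = 0.562, limma), and without PCN replicate 4 it was 0.09 (adjusted p = 0.935). Lcn2 read 7.82, 7.20, 8.40, 7.94 and 8.14 in corn oil and 8.22, 8.01, 8.29, 9.93 and 8.54 in PCN, again with replicate 4 highest. Its difference of 0.70 ± 0.33 (SE, adjusted p = 0.3, limma) was 0.36 without that array (adjusted p = 0.481).

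Orm1, an abundant drug-binding glycoprotein, averaged 13.09 ± 0.37 in corn oil and 13.46 ± 0.30 in PCN (SD, n = 5 each). Corn oil replicate 1 read 13.74, above 4 of the 5 PCN arrays, whereas the other corn oil arrays lay between 12.87 and 13.03. Its difference of 0.37 ± 0.18 (SE, adjusted p = 0.314, limma) was 0.53 without that array (adjusted p = 0.0601). Crp, C-reactive protein, which in the rat is made without much induction, averaged 13.87 ± 0.43 in corn oil and 14.22 ± 0.08 in PCN. The corn oil mean was pulled down by replicate 2 at 13.13, and without it the difference went from 0.35 to 0.17 (adjusted p = 0.232, limma). Ceruloplasmin (Cp), the copper-carrying ferroxidase, differed by 0.15 ± 0.09 in its brightest probe set and by 0.04 and 0.01 in the other two. Hemopexin (Hpx), which carries heme, differed by 0.09 ± 0.05 (SE, adjusted p = 0.34), the elastase inhibitor Serpina1 by -0.01 ± 0.05 (adjusted p = 0.914) and the pentraxin Apcs, serum amyloid P, by -0.09 ± 0.05 (adjusted p = 0.35, limma).

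The same 2 livers were at the ends for most of this group. PCN replicate 4 gave the highest of the 10 values for 7 of the 11 acute phase genes (A2m, Cp, Crp, Hp, Lcn2, Orm1 and Serpina3n) and for 12 of the 35 members in all, and the lowest for none. Corn oil replicate 2 gave the lowest value for 7 of the 11 (Cp, Crp, Hp, Hpx, Lbp, Lcn2 and Serpina3n). The mean level over the 11 genes lay between 12.39 and 12.60 in corn oil and between 12.58 and 12.80 in 4 of the PCN arrays, and was 13.24 in PCN replicate 4. Without that array the median difference of the group went from 0.26 to 0.09, and without corn oil replicate 2 to 0.17. Other scalings gave medians from 0.18 to 0.26. With a term for 2 sets of arrays that an earlier examination of these data had found (corn oil replicate 1 with PCN replicates 1, 3, 4 and 5, against the rest), the median was 0.08, and Orm1 stood at -0.03 (adjusted p = 0.974, limma). These sets largely overlap with treatment, so the term can take up part of the treatment difference. With group means removed, correlations between arrays had a median of -0.05 within sets (-0.62 to 0.42). Between sets it was -0.12 (-0.64 to 0.28). Of 5 neutrophil markers on these arrays only S100a9 lay above the filter on dim probe sets, at 7.11 ± 0.22 in corn oil and 7.68 ± 0.48 in PCN (SD, n = 5 each, unadjusted p below 0.05, adjusted p = 0.153, limma). The neutrophil markers summed to 8.47 to 8.67 in corn oil and 8.58 to 9.16 in PCN, and S100a8, Cxcr2, Np4 and Mmp8 were below the filter. On the second array type they summed to 6.82 to 7.01 in corn oil and 6.71 to 6.88 in PCN. Camp, the neutrophil marker tested there, stood at -0.09 ± 0.07 (SE). Macrophage markers of the first array type summed to 13.76 to 14.04 in corn oil and 13.68 to 14.32 in PCN. Their part in the acute phase values was not tested.

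**Figure D2:**
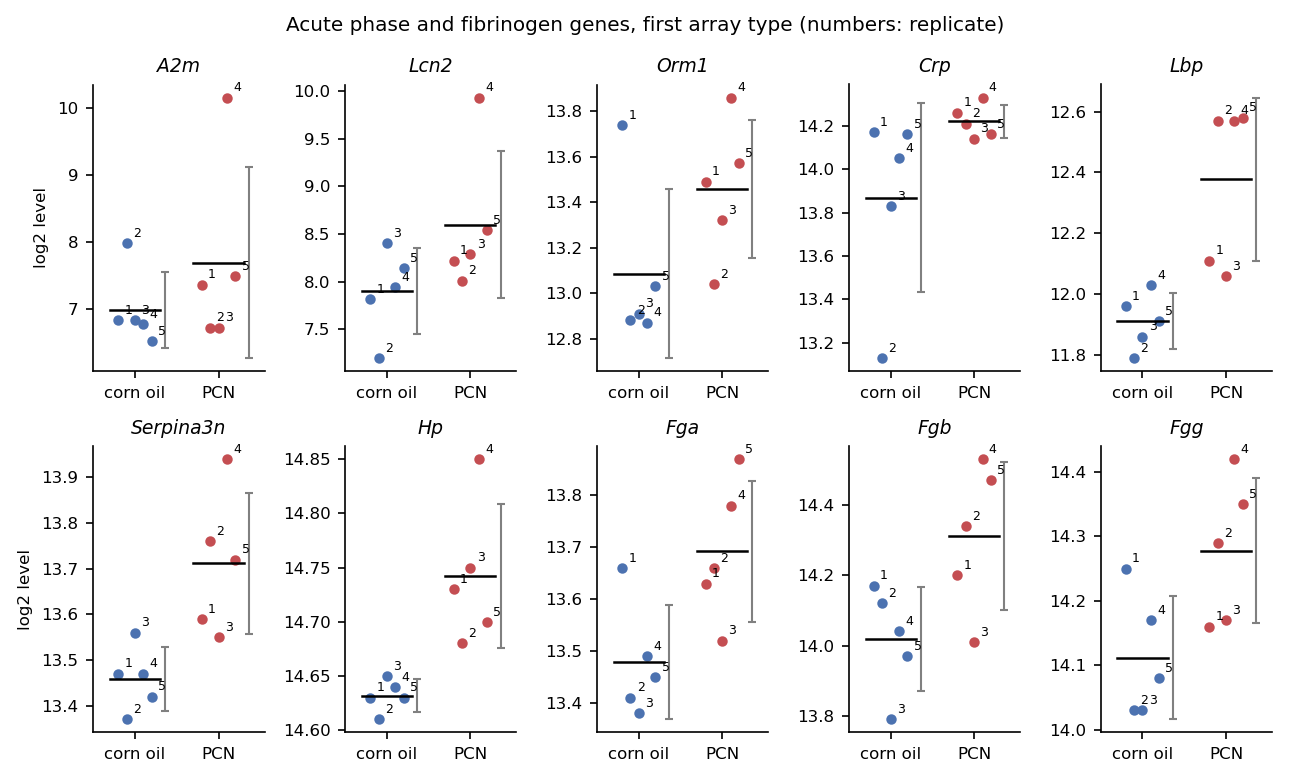
Log2 level (vertical axis, a separate scale in each panel) of 7 acute phase genes and the 3 fibrinogen genes in each array of the first type, corn oil on the left and PCN on the right. Points are arrays labelled with the replicate number, black bars are group means and grey bars the SD. PCN replicate 4 is the highest array for A2m (10.15), Lcn2 (9.93) and Orm1 (13.86), while the 5 PCN arrays of Lbp and Hp lie above all corn oil arrays.

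Of the 9 coagulation genes on the first array type none was called, and 4 had an unadjusted p below 0.05 (limma), the 3 fibrinogen genes higher and plasminogen lower. Fibrinogen, the precursor of the fibrin clot and itself an acute phase protein, is built of 3 chains from neighbouring genes, and all 3 were slightly higher after PCN without passing the test. Fga read 13.66, 13.41, 13.38, 13.49 and 13.45 in corn oil and 13.63, 13.66, 13.52, 13.78 and 13.87 in PCN, a difference of 0.21 ± 0.08 (SE, adjusted p = 0.161, limma). Fgb read 14.17, 14.12, 13.79, 14.04 and 13.97 in corn oil and 14.20, 14.34, 14.01, 14.53 and 14.47 in PCN, a difference of 0.29 ± 0.10 (SE, adjusted p = 0.149, limma). Fgg read 14.25, 14.03, 14.03, 14.17 and 14.08 in corn oil and 14.16, 14.29, 14.17, 14.42 and 14.35 in PCN, a difference of 0.17 ± 0.06 (SE, adjusted p = 0.2, limma). The groups overlapped for each chain, with corn oil replicate 1 high and PCN replicates 1 and 3 low. The 95% intervals allowed differences of 0.05 to 0.38 for Fga, 0.07 to 0.51 for Fgb and 0.03 to 0.31 for Fgg. A second probe set of Fga gave 0.12 ± 0.28, and the dim second one of Fgb gave -0.12 ± 0.09 (SE). The remaining probe set of Fgb lay below the filter and was not tested.

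The 250 bases before the transcription start of the fibrinogen genes, and of C5 as the called member, are shown so that the start regions of the 3 chains can be compared with each other. They are taken from RefSeq on the rat assembly GRCr8, in the direction of transcription, and end at the base before the start. Capitals mark the C/EBP motif TTGCNNAA, the HNF1 core GTTAAT and the core CTGGGA of the interleukin-6 response element, on either strand. Fga lies on the plus strand (chr2:170671919-170672168), Fgb on the minus strand (chr2:170700876-170701125), Fgg on the plus strand (chr2:170652833-170653082) and C5 on the minus strand (chr3:38759469-38759718).
Fga: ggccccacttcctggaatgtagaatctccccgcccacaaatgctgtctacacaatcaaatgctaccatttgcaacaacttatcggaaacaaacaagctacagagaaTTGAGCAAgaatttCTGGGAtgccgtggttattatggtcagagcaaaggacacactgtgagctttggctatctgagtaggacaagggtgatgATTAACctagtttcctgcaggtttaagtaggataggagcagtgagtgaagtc
Fgb: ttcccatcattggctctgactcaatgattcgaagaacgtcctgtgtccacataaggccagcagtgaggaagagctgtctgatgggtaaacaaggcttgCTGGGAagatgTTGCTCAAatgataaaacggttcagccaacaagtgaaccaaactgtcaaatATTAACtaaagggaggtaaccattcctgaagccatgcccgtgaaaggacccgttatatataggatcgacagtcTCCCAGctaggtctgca
Fgg: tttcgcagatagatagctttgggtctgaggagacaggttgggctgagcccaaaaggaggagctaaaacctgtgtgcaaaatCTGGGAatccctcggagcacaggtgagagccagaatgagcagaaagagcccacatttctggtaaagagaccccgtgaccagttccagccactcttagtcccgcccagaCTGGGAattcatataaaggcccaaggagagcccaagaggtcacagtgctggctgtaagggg
C5: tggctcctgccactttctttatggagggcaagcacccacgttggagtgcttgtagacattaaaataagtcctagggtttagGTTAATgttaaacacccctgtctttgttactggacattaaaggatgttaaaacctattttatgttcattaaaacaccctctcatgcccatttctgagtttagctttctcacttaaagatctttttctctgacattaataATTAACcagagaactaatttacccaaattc
Fga and Fgb each held a C/EBP match, 144 to 137 and 141 to 134 bases before the start, and an HNF1 core, 52 to 47 and 90 to 85 bases before it. Fgg held neither. CTGGGA was matched in each of the fibrinogen genes. It lay 130 to 125 bases before the start in Fga, and 169 to 164 and 61 to 56 bases before it in Fgg. In Fgb it lay 152 to 147 bases before the start and, on the other strand, 17 to 12. A STAT motif, TTCNNNGAA, which is not in capitals here, was matched by ttcctggaa in Fga and by ttcgaagaa in Fgb. C5 held the HNF1 core at 169 to 164 and at 30 to 25 bases before the start and none of the other motifs searched.

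Of the 48 members 39 had an entry in the promoter table, and 5 motifs were searched on both strands of the 250 bases, with no overlap between different motifs in the sequences shown. The C/EBP motif was found in 17 of 39 members (43.6%), against 9.2% of 27457 genes. CTGGGA was found in 20 members (51.3%, against 25.8% of all genes), among them 11 of 14 coagulation genes. The HNF1 core was found in 9 (23.1%, against 6.46%) and the STAT motif in 8 (20.5%, against 7.52%). AGTTCA, a core sequence bound by the pregnane X receptor with its partner RXR, was found in 3 (7.69%, against 12.1%). These are matches of letters in a short window and say nothing of binding.

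Plasminogen (Plg), whose active form dissolves fibrin, was the only member of the list whose PCN arrays all lay below the corn oil arrays. It read 14.14, 14.05, 14.02, 14.12 and 14.09 in corn oil and 13.93, 13.92, 14.01, 13.93 and 13.97 in PCN. The gap was narrow, with PCN replicate 3 at 14.01 next to corn oil replicate 3 at 14.02. The difference was -0.13 ± 0.04 (SE, 95% interval -0.22 to -0.04, adjusted p = 0.124, limma), a 1.1-fold difference that did not pass the test. Of the 35 members on the first array type, groups did not overlap for 2 that were higher after PCN and 1 that was lower. In either direction this held for 6.04% of all probe sets there and 11.3% of the brightest 10%. Protein S (Pros1), the cofactor of activated protein C, differed by 0.16 ± 0.07 (SE, adjusted p = 0.283), about as much as Fgg, and protein C itself (Proc) by -0.05 ± 0.07 (adjusted p = 0.762, limma). Prothrombin (F2) differed by -0.02 ± 0.05, factor V (F5) by 0.01 ± 0.09 and factor X (F10) by -0.08 ± 0.08 (SE). All 9 coagulation genes of the first array type had 95% intervals within a 1.5-fold change. Factor IX (F9), the factor missing in hemophilia B, was measured on the second array type and differed by 0.03 ± 0.09 (SE, adjusted p = 0.852), and antithrombin (Serpinc1) by -0.05 ± 0.09 (adjusted p = 0.75, limma). After centring on the 100 probe sets that both array types share, Serpinc1 stood at -0.33 and passed the threshold (adjusted p = 0.0499, limma), where the median of all probe sets was -0.31.

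Complement was where the one call lay. C5, whose cleavage releases the inflammatory peptide C5a and starts the membrane attack complex, read 11.40, 10.67, 11.01 and 10.91 in corn oil replicates 1, 3, 4 and 5. In PCN replicates 1 to 5 it read 11.91, 11.81, 11.67, 11.83 and 11.85. All 5 PCN arrays lay above all 4 corn oil arrays and were closer together than these. Groups were apart in this way in 10.4% of all probe sets of this array type and in 21.2% of the brightest 10%. The corn oil SD was 0.30 (n = 4), and C5 rose to a mean of 11.82 ± 0.09 (SD, n = 5), a difference of 0.82 ± 0.13 (SE, 95% interval 0.53 to 1.11, adjusted p = 0.00969, limma). It passed the threshold in 21 of 22 alternative settings, with differences from 0.50 to 0.95. The exception was cyclic loess normalization, which removes any trend of the difference with brightness and gave 0.50 (adjusted p = 0.106, limma). In the runs that left out a single array the adjusted p stayed between 0.00655 and 0.0414. Hnf4a, the only hepatocyte marker measured on these arrays, lay between 11.74 and 12.15 in corn oil and between 12.15 and 12.45 in PCN. It is also a transcription factor on the list of regulators of plasma protein genes. On the first array type 2 of 6 hepatocyte markers were positive, with a median of -0.05. The macrophage markers of the second array type summed to 9.11 to 9.67 in corn oil and 9.37 to 10.17 in PCN. The part of these cells in the C5 rise was not tested.

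C2, the protease of the classical and lectin pathway C3 convertase, had 3 probe sets that did not give the same call. The brightest, 1383392_at, read 11.10, 10.89, 10.98 and 11.24 in corn oil and 11.60, 11.41, 11.44, 11.45 and 11.20 in PCN, a difference of 0.37 ± 0.11 (SE, adjusted p = 0.0684, limma). The second, 1383391_a_at, read 9.97, 10.33, 9.86 and 10.23 in corn oil and 10.88, 10.79, 11.12, 10.54 and 10.42 in PCN. Its groups did not overlap, and it rose 1.57-fold (0.65 ± 0.15 SE, adjusted p = 0.033, limma). The dimmest, 1393219_at, read 10.45, 10.12, 10.23 and 10.39 in corn oil and 10.76, 10.39, 10.72, 10.54 and 10.44 in PCN, and gave 0.27 ± 0.11 (SE, adjusted p = 0.143, limma). The call of 1383391_a_at held in 12 of 21 alternative settings. It was lost after quantile normalization (0.40, adjusted p = 0.0965) and after cyclic loess (0.40, adjusted p = 0.0972, limma), and kept at 0.37 after centring on the 100 probe sets that both array types share (adjusted p = 0.0164). With that centring 6493 of 10693 probe sets were called. The call of 1383391_a_at was also lost without any of 6 single arrays (PCN replicates 1, 2 and 3 and corn oil replicates 1, 4 and 5), with adjusted p values of 0.0776, 0.0709, 0.0702, 0.0939, 0.107 and 0.0503 in that order.

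C8a, a chain of the membrane attack complex, read 11.51, 10.97, 11.19 and 11.42 in corn oil and 11.79, 11.38, 11.68, 11.67 and 11.75 in PCN. PCN replicate 2 lay inside the corn oil range and the other PCN arrays above it, a difference of 0.38 ± 0.13 (SE, adjusted p = 0.0982, limma). C6, which joins C5b in the same complex, read 10.95, 10.16, 9.21 and 10.20 in corn oil and 11.57, 10.24, 10.10, 10.90 and 10.11 in PCN. Its arrays spread so widely that the difference of 0.45 ± 0.35 (SE, adjusted p = 0.414, limma) had a 95% interval from -0.32 to 1.23.

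**Figure D3:**
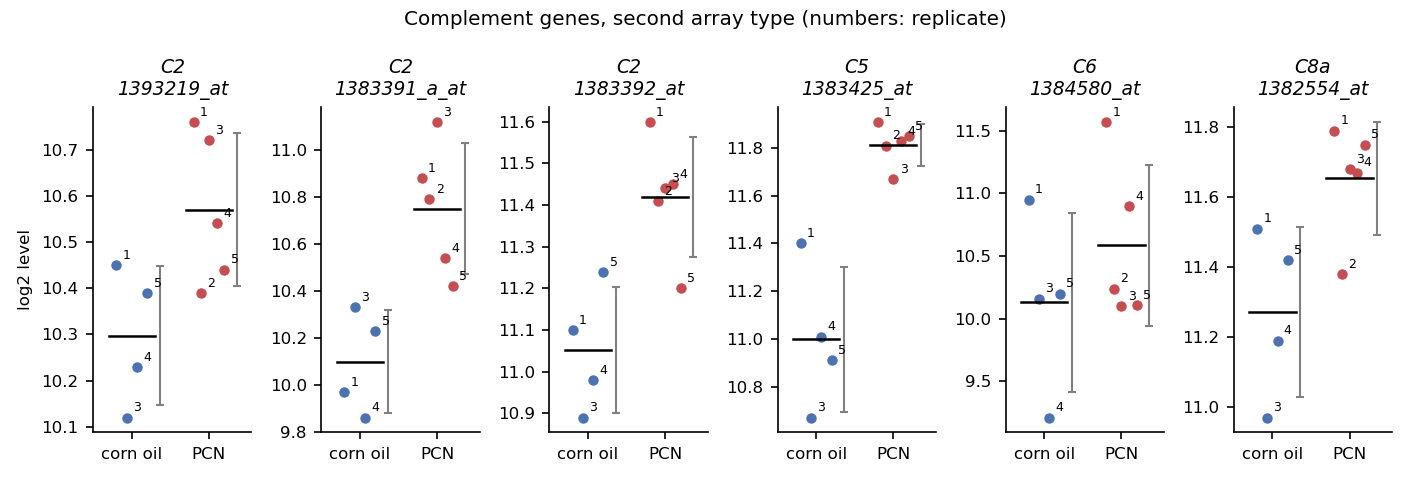
Log2 level (vertical axis, a separate scale in each panel) of the 6 probe sets of C2, C5, C6 and C8a on the second array type, 4 corn oil arrays on the left and 5 PCN arrays on the right. Points are arrays labelled with the replicate number, black bars are group means and grey bars the SD. The groups are apart for C5 and for the C2 probe set 1383391_a_at and overlap in the other 4 panels.

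Bright probe sets as a whole were higher after PCN on the second array type, and this bears on all 8 members measured there. The median difference was 0.20 in the brightest 10% of probe sets and -0.06 in the dimmest 10%, and 77.6% of the brightest were positive. The 219 probe sets with a mean level from 10 to 12, which include the 4 complement genes, had a median of 0.26, with quartiles of 0.04 and 0.42. Of these 18.3% were called. Against that, C5 at 0.82 lay above the upper quartile, C6 (0.45) lay just above it, and C8a (0.38) and the brightest probe set of C2 (0.37) lay below it. The 25 probe sets above 12 had a median of 0.11, and F9, Serpinc1, Itih1 and Itih2 lay among them. The 100 probe sets that both array types share averaged 0.28 higher after PCN on the second and 0.08 higher on the first. After centring on those 100, C5 stood at 0.54 (adjusted p = 0.00723, limma). With that centring 6493 of 10693 probe sets were called, and the median of all was -0.31. After quantile normalization C5 stood at 0.64 (adjusted p = 0.0391, limma). The median of the 4 complement genes was 0.42 as deposited, 0.20 after quantile normalization and 0.14 after cyclic loess or centring on the shared probe sets. All 4 stayed positive in each of the 22 settings. The same arrays were at the ends for most of them. PCN replicate 1 was the highest array for all 4, and corn oil replicate 3 the lowest for C2, C5 and C8a. The mean level over the 4 genes lay between 10.60 and 11.24 in corn oil and between 11.21 and 11.72 in PCN. Which share of the C5 rise belongs to the shift of bright probe sets was not tested.

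**Figure D4:**
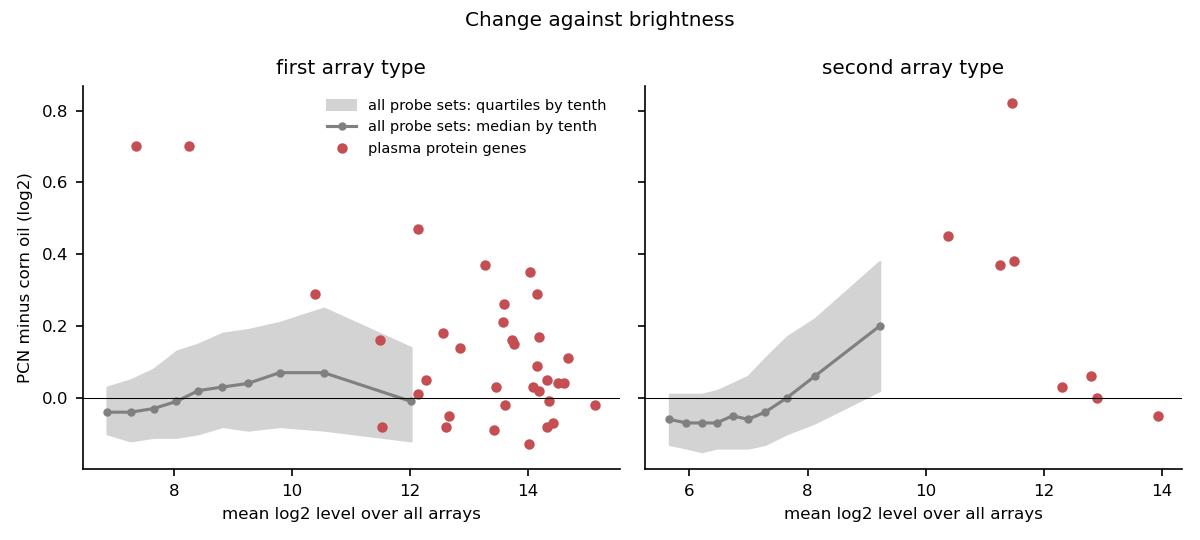
Difference between PCN and corn oil (log2, vertical axis) against the mean log2 level over all arrays (horizontal axis) for the first array type on the left and the second on the right. Red points are the plasma protein genes (35 and 8), and the grey line and band give the median and quartiles of all probe sets tested, in 10 groups of equal size by brightness. On the second array type the grey line climbs from -0.06 to 0.20 and C5 lies highest of the red points at 0.82.

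None of the 8 complement genes of the first array type was called. C3, the centre of all 3 activation routes, averaged 14.59 ± 0.08 in corn oil and 14.63 ± 0.05 in PCN (SD, n = 5 each), a difference of 0.04 ± 0.05 (SE, adjusted p = 0.732, limma). C9, which forms the pore of the membrane attack complex, differed by 0.16 ± 0.10 (adjusted p = 0.44), the protease C1s by 0.18 ± 0.13 (adjusted p = 0.517) and its inhibitor Serping1 by 0.14 ± 0.08 (SE, adjusted p = 0.39, limma). Complement factor I (Cfi), which cleaves C3b, differed by 0.03 ± 0.07 (SE). In the lectin pathway the protease Masp1 differed by 0.29 ± 0.13 (SE, adjusted p = 0.292, limma), and its other probe sets gave 0.36 and 0.21. The mannose-binding lectin genes Mbl1 and Mbl2 differed by -0.08 ± 0.16 and 0.05 ± 0.08 (SE), with 0.28 ± 0.18 from a second probe set of Mbl2. In the probe sets with the larger difference corn oil replicate 2 stood apart, at 7.68 for Masp1 against 9.05 to 9.42 in the other corn oil arrays and at 10.32 for Mbl2 against 11.31 to 11.35. In the brightest probe set of Masp1 the same array was the highest of corn oil, at 10.66 against 9.98 to 10.28, and without it the difference was 0.39 with groups that did not overlap (adjusted p = 0.0775, limma). Over the 8 genes 7 differences were positive with a median of 0.10, none had an unadjusted p below 0.05 (limma), and all 95% intervals lay within 1.5-fold. Whether C5 differed more than the genes of the first array type was not tested, since the array types were normalized apart.

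The inter-alpha-trypsin inhibitors, whose heavy chains are passed to hyaluronan in the extracellular matrix, differed little in the values as deposited. On the first array type Itih3 and Itih4 differed by 0.04 and 0.05, and Ambp, which encodes the light chain bikunin together with alpha-1-microglobulin, by -0.08 ± 0.04 (SE, adjusted p = 0.352, limma). Ambp read 14.40, 14.32, 14.31, 14.39 and 14.39 in corn oil and 14.28, 14.24, 14.32, 14.28 and 14.31 in PCN, with PCN replicate 3 inside the corn oil range. On the second array type Itih1 differed by 0.00 ± 0.09 and Itih2 by 0.06 ± 0.10 (SE). There the result depended on the scaling. After cyclic loess they stood at -0.41 and -0.35, both with an unadjusted p below 0.05 but without a call (limma). Among the carriers, albumin (Alb), the main protein of plasma, differed by -0.02 ± 0.04 (SE), with a 95% interval from -0.10 to 0.07, and by 0.03 in a second probe set. Apoa1, the main protein of high density lipoprotein, differed by 0.03 ± 0.07 and vitronectin (Vtn), an adhesion protein, by 0.02 ± 0.04 (SE). Ahsg, fetuin-A, which keeps calcium phosphate in solution, read 14.52, 14.44, 14.47, 14.40 and 14.52 in corn oil and 14.46, 14.32, 14.38, 14.40 and 14.43 in PCN. The groups overlapped, and the difference was -0.07 ± 0.04 (SE, adjusted p = 0.404, limma).

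The median spread within groups was smaller for members than for all probe sets on the first array type, but not on the second. The pooled SD of the 35 members on the first array type ran from 0.03 to 1.08 with a median of 0.12, against 0.17 over all probe sets. A2m had the largest. On the second array type the median was 0.12 both for the 8 members and for all probe sets. Small differences could not be resolved for every member. The 95% interval lay within a 1.5-fold change for 6 of the 11 acute phase genes and none of the 4 complement genes of the second array type. The brightest probe sets lie near the top of the deposited range, which ended at 15.24 on the first array type. Whether differences are compressed there was not tested. Among the 46 probe sets with a mean level of 14 or more, 15 of them members, none was called (limma) and the median difference was -0.02.

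Other genes of the same pathways, from lists drawn up by function, were compared in the same fits. On the first array type none of 14 further coagulation genes, 15 further complement genes and 30 other secreted liver proteins was called (limma), with 1, 1 and 5 at an unadjusted p below 0.05. There 3.25% of all probe sets were called and 17.7% had an unadjusted p below 0.05. Of the further complement genes 12 of 15 were positive with a median of 0.10, and of the other secreted proteins 6 of 30 with a median of -0.06. None of 2 further coagulation genes and 1 further complement gene on the second array type was called, with 1 and 0 at an unadjusted p below 0.05 (limma). On that array type 5.4% of all probe sets were called and 27.3% had an unadjusted p below 0.05. Among its 1070 brightest probe sets, where Fgl1 lay, these shares were 15.2% and 43.9%. Of 4 other secreted proteins there, Fgl1, a fibrinogen-like protein of hepatocytes, rose from 12.56 to 13.02 (0.46 ± 0.12 SE, adjusted p = 0.0473, limma). Its call held in 8 of 22 alternative settings, with a difference of 0.05 after cyclic loess, and was lost without any of 7 single arrays (PCN replicates 1 to 4 and corn oil replicates 3 to 5), with adjusted p values of 0.074 to 0.128.

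Among receptors and transcription factors that act on plasma protein genes, 1 of 23 was called on the first array type and 1 of 4 on the second, both higher. Of all probe sets 3.25% and 5.4% were called on these array types. At an unadjusted p below 0.05 there were 8 of the 23 on the first array type, 5 higher and 3 lower (limma), against 17.7% of all probe sets. Il1r1, the receptor for interleukin-1, rose from 7.82 ± 0.54 to 8.90 ± 0.30 (SD, n = 5 each), a 2.1-fold difference of 1.07 ± 0.23 (SE, adjusted p = 0.0304, limma). Its second probe set gave 1.58 ± 0.43 (adjusted p = 0.0662, limma), and the call held in 17 of 24 alternative settings. It did not hold with the term for 2 sets of arrays, which overlaps with treatment (0.70, adjusted p = 0.231, limma). It was lost without PCN replicate 3, 4 or 5 or corn oil replicate 3, 4 or 5, with adjusted p values of 0.0638 to 0.078. Jak1, a kinase that carries the signal of the interleukin-6 receptor, rose from 11.39 ± 0.06 (SD, n = 4) to 11.81 ± 0.12 (SD, n = 5) on the second array type, by 0.42 ± 0.10 (SE, adjusted p = 0.0317, limma). Its second probe set gave 0.43 (adjusted p = 0.0343), and its call held in 10 of 22 settings, with 0.09 after cyclic loess and 0.19 after quantile normalization. Without PCN replicate 1, 2, 3 or 4 or corn oil replicate 1, 3 or 4 its adjusted p was 0.0552 to 0.0981 (limma). Cebpb and Cebpd, the C/EBP factors of the acute phase, stood at 0.50 ± 0.13 (SE, adjusted p = 0.0653) and 0.43 ± 0.11 (adjusted p = 0.0647, limma), with groups that did not overlap for either. The 2 dimmer probe sets of Cebpd gave 0.33 and 0.05. Socs3, the feedback inhibitor that STAT3 induces, stood at 0.54 ± 0.20 (SE, adjusted p = 0.183), and the NF-κB inhibitor Nfkbia at 0.32 ± 0.14 (adjusted p = 0.244, limma). The liver transcription factor Onecut1 stood at -1.30 ± 0.44 (SE, adjusted p = 0.136), the largest difference of the list, the glucocorticoid receptor Nr3c1 at -0.37 ± 0.13 (adjusted p = 0.151) and the kinase Tyk2 at -0.33 ± 0.11 (adjusted p = 0.124, limma), with groups that did not overlap for Tyk2. Groups were apart in 6.04% of all probe sets on these arrays. These 7 genes were picked for mention after their values were seen.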

How the data were processed

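Liver RNA of PCN and corn oil rats was measured on 2 Affymetrix array types. The authors deposited log2 levels per probe set, already processed, as 1 table per array type. The submitters' processing notes name MAS5 without a version, and background correction, summarization and scaling are not given in the sources used here. The base of the logarithm was inferred from the range of the values. The tables held 15923 and 15333 probe sets, of which 12789 and 7570 mapped to 1 gene, 312 and 100 to several and 2822 and 7663 to none. Symbols were updated by gene identifier to RefSeq GRCr8 (12754 and 7530 matched).

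Control probe sets (57 per type) and dim ones, under the 30th percentile of mean level (6.67 and 5.51), were left out, which left 11106 and 10693. Each was fitted with limma 3.58.1 in R 4.3.3, with treatment alone and variances moderated along an intensity trend, with two-sided p-values adjusted by the Benjamini-Hochberg method over all probe sets of an array type. The procedure was tested on simulated data. A gene was represented by its brightest single-gene probe set. Arrays have no read depth, so their number limits precision.

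The members and lists were chosen with earlier results of these data known. Values per array were given for called members and, in each group, for the member with the largest difference among those whose groups did not overlap, or else the smallest p. Others shown per array (A2m, Lcn2, Hp, the fibrinogen chains, C8a and C6) were added after their values were seen. Called genes of the pathway lists were named. Alternatives were a dimness filter at the 50th percentile or none, a common median or trimmed mean (2% off each end) for every array, quantile normalization, a pseudocount of 16, the replicate number as a block, a term for 2 sets of arrays, no trend, robust moderation, array weights, the mean of a gene's probe sets, and leaving out each array. Cyclic loess and centring on 100 shared probe sets were chosen after seeing the data.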

Additional observations from a re-analysis of the deposited data

Results flagged for a closer look

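Of 86 groups of arrays (a member gene in one treatment on one array type), 8 held an array far from the others by Dixon's criterion, which chance alone gives in about 1 group in 20. Of these 4 lay in acute phase genes. A2m read 10.15 in PCN replicate 4, against 6.73 to 7.50 in the other PCN arrays, and 7.98 in corn oil replicate 2, against 6.53 to 6.84. Lcn2 read 9.93 in PCN replicate 4, against 8.01 to 8.54. Orm1 read 13.74 in corn oil replicate 1, against 12.87 to 13.03. F5 read 12.40 in corn oil replicate 2, against 12.01 to 12.10. Cfi read 13.21 in PCN replicate 2, against 13.52 to 13.55 in the other PCN arrays. Serping1 read 13.07 in PCN replicate 5, against 12.86 to 12.90. F9 read 12.44 in PCN replicate 1 on the second array type, against 12.28 to 12.30. None of these 7 genes was called with all arrays in the fit (limma). At an unadjusted p below 0.05 there was none of them either.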

How the results depend on the processing

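On the first array type, where no member was called, 5 of 24 alternatives gave a call. Array weights gave 2 (Lbp and Masp1), and a filter at the 50th percentile and robust moderation gave 1 each (Lbp). Leaving out single arrays gave 0 to 1, with Lbp called without PCN replicate 1 or 3. On the second array type, where C5 was called, array weights gave 3 (C2, C5 and C8a), centring on the shared probe sets 2 (C5 higher and Serpinc1 at -0.33, adjusted p = 0.0499, limma), the mean of a gene's probe sets 2 (C2 and C5), no trend 2 (C2 and C5) and cyclic loess 0. Leaving out single arrays gave 1 to 2 (C2 added without PCN replicate 5). The median difference of the 8 genes was 0.21, but -0.07 after centring on the shared probe sets and -0.14 after cyclic loess. With that centring the median over all probe sets was -0.31, and 6493 probe sets were then called in place of 577. F9, Itih1 and Itih2 turned negative without a call after quantile normalization (-0.13, -0.14 and -0.05), cyclic loess (-0.34, -0.41 and -0.35) and that centring (-0.25, -0.28 and -0.22). The cause was not tested. No called value changed sign. Counts over all probe sets ranged from 154 (without corn oil replicate 4) to 1051 (array weights) around 361 on the first array type, and from 84 (without corn oil replicate 4) to 6493 around 577 on the second. Same-numbered corn oil and PCN arrays did not deviate together in every pair (residual correlations of -0.301 to 0.284 for the first array type, 0.02 to 0.201 for the second), so the numbers were not taken to pair the animals. With the replicate block, 239 probe sets and 0 members were called on the first array type, and 203 probe sets and 1 member (C5) on the second. The C2 probe set 1383391_a_at then had an adjusted p of 0.0628 (limma). With 4 or 5 arrays a group, 5 of the 35 genes of the first array type (A2m, Crp, Lbp, Lcn2 and Orm1) had intervals reaching past 1.5-fold. Apart from that of Lbp (0.21 to 0.73) these intervals also held 0, so that no change and a change of that size cannot be told apart there.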
